A study of Mus musculus with 10 samples.

Results

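Voltage-gated calcium and sodium channel genes were followed in the hippocampus of mice that differed in how much they explored an open field. A probe set belonged to the group when the array's annotation gave it exactly 1 gene symbol and that symbol began with Cacna, Cacnb or Cacng, for a calcium channel subunit, or with Scn and a digit, for a sodium channel subunit. The rule found 85 of 45037 probe sets, which represent 35 of the 18193 genes with a probe set of 1 symbol. Of these, 55 probe sets belong to 24 calcium channel genes and 30 to 11 sodium channel genes.

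The study compared the hippocampus of 5 High Exploration with that of 5 Low Exploration mice, hybridizing each animal to its own Affymetrix mouse genome array, and asked how gene expression differs between genetically identical animals that behave differently. All were female Balb c/J mice, an inbred strain, bought from Jackson and born on 1 day. High Exploration and Low Exploration mice were the top and the bottom of a ranking on composite open field behavior measured over several days and lighting conditions. The tissue was whole hippocampus, with no region dissected out, and the groups were selected on behavior, so no treatment separates them. The labels give no age. Precision is limited throughout by having 5 arrays a group.

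A voltage-gated channel opens when the membrane depolarizes. Sodium channels, each a large pore (alpha) subunit with smaller beta subunits, start and carry the action potential. Calcium channels consist of a pore subunit, an extracellular alpha2-delta subunit and a cytoplasmic beta subunit, and they turn depolarization into calcium entry that drives transmitter release, gene transcription and, in muscle, contraction. Most proteins of the gamma family, which were named for a muscle calcium channel subunit, are better known in brain as TARPs, transmembrane proteins that bring AMPA-type glutamate receptors to synapses.

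Upstream sequence is shown for 3 genes with a probe set on which every High Exploration mouse lay on one side of every Low Exploration mouse, as described further on: Scn1a, Cacna1b and Scn9a. Cacng4, the other such gene, had no window in the table used. Each run is the 250 bases before a transcript start, from RefSeq on build GRCm38.p6, with motifs in capitals. All 3 lie on the minus strand of chromosome 2, at chr2:66440838-66441087 for Scn1a, chr2:24763153-24763402 for Cacna1b and chr2:66634963-66635212 for Scn9a. The annotated genes reach to 66440837 for Scn1a, 24763200 for Cacna1b and 66635114 for Scn9a. The Cacna1b and Scn9a windows therefore lie partly within their own gene.
Scn1a: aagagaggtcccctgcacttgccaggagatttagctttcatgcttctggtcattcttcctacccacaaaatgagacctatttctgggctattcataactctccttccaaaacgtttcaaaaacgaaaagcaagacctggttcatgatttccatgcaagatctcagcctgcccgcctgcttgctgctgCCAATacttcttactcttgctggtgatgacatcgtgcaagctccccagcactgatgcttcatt
Cacna1b: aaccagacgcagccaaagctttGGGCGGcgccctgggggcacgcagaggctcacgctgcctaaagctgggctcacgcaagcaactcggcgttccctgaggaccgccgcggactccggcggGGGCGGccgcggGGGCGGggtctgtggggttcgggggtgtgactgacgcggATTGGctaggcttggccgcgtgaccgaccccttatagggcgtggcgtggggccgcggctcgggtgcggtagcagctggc
Scn9a: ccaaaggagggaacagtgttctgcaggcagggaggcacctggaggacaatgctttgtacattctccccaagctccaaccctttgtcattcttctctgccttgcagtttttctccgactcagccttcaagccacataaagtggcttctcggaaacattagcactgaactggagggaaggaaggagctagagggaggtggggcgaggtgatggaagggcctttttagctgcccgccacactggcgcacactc
The Scn1a window holds CCAAT once and has 46.8% G and C. The Cacna1b window has 72.0% G and C and holds GGGCGG at 3 places and CCAAT once, on the other strand, so that the printed strand reads ATTGG. The Scn9a window has 54.4% G and C and holds none of the motifs searched.

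Windows were found for 27 of the 35 channel genes, 37 windows in all, and 5 motifs were searched on both strands. GGGCGG, the core of a GC box, was in 37.8% of the channel windows, against 32.7% of all 32851 windows. CCAAT was in 24.3% of channel windows and 33.9% of all windows, and TATAAA in 5.41% and 12.4%. CACGTG and TGACGTCA were in 0 of the 37 channel windows, against 6.02% and 1.55% of all windows. These are matches of letters only.

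The values were MAS 5.0 signals, on which all arrays have the same trimmed mean, and they are given here as log2 signal, so that a difference of 1 is 2-fold. The error after a mean is the SD over 5 mice and the error after a difference is limma's SE. The arrays themselves differed in ways that touch every value below. An array's median log2 signal averaged 7.404 ± 0.20 in the High Exploration mice, against 7.94 ± 0.11 in the Low Exploration mice (SD, n = 5 each; exact permutation test, two-sided p = 0.00794, the smallest that 5 against 5 allows). The 24 poly-A spike control probe sets averaged 12.5 ± 0.47 in High Exploration and 14.1 ± 0.44 in Low Exploration mice, and the 18 hybridization controls 13.6 ± 0.31 and 14.2 ± 0.29. The ratio of 3' to 5' Gapdh signal, by contrast, was higher in High Exploration, at 4.72 ± 0.48 on the log2 scale, against 3.72 ± 0.23 in Low Exploration mice (exact permutation test, p = 0.0159). For beta-actin (Actb) the groups were closer: the ratio averaged 5.30 ± 0.58 over High Exploration mice, against 4.97 ± 0.75 for Low Exploration mice. The exact permutation test gave p = 0.484 for Actb, so a clear difference in this ratio was seen for Gapdh only. Only the Gapdh ratio was used as a covariate below. The part of these array measures in the differences between groups was not tested beyond the alternative scalings given below.

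Of the 85 probe sets, 47 had a mean log2 signal above the median of all probe sets, 7.43, and were tested, and 38 lay below it. Those 47 represent 26 genes. The other 9 genes had only probe sets below: Cacna1f, Cacna1g, Cacna1h, Cacng1, Cacng3, Scn4b, Scn9a, Scn10a and Scn11a. Scn10a and Scn11a carry sodium current in peripheral sensory neurons and Cacna1f is the channel of photoreceptors, while Cacna1g and Cacna1h are the T-type pores that open at low voltage.

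None of the 47 probe sets differed between High Exploration and Low Exploration mice after adjustment over all 22518 probe sets tested (limma, Benjamini-Hochberg; adjusted p from 0.0610 to 0.974), where 0.0133% of all probe sets did. At an unadjusted p under 0.05, 4 channel probe sets were higher in High Exploration (8.51%, against 9.67% of all tested) and 6 were lower (12.8%, against 20.5%), 21.3% in all, against 30.2%. Without the filter, 0 of the 85 passed, against 0.0711% of all 45037, and at an unadjusted p under 0.05 there were 4 higher and 9 lower (4.48% and 16.8% of all). In whole hippocampus, fewer cells of a type and less RNA per cell cannot be told apart.

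On the deposited scale 13 of the 47 were higher in High Exploration and 34 lower, a share of 27.7% higher, against 38.1% of all probe sets tested, and their median difference was -0.31, as was that of all tested. Both medians turned with the scaling of the arrays: with each array centred on its median they were 0.22 for the channel probe sets and 0.23 for all, and with the hybridization controls set equal 0.29 and 0.30. The 31 calcium channel probe sets had a median difference of -0.50 and the 16 sodium channel probe sets of -0.23 as deposited, and 0.039 and 0.31 after median centring.

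**Figure D1:**
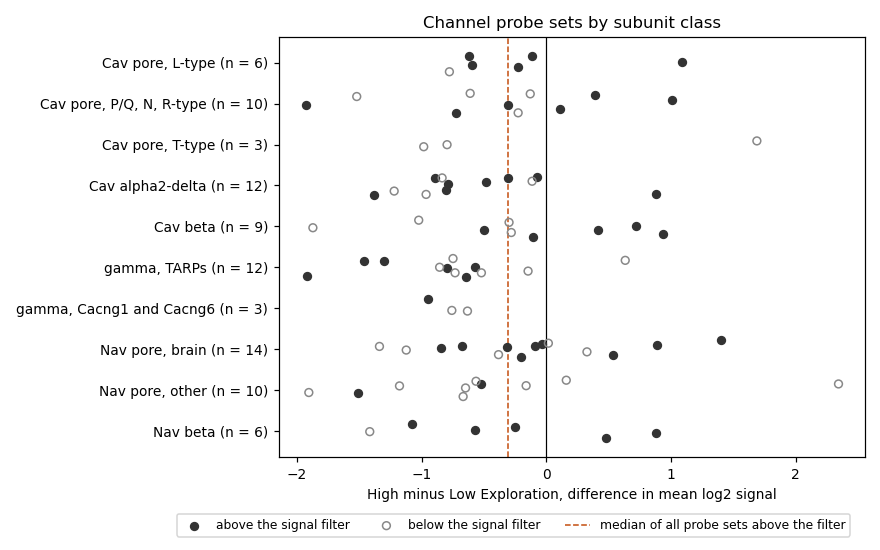
Difference in mean log2 signal, High minus Low Exploration, for the 85 channel probe sets (points), by subunit class, with 47 above the signal filter (filled) and 38 below it (open). The dashed line marks the median of all probe sets above the filter, -0.31, around which most classes spread, and the 6 filled TARP points lie below 0 on the plotted, deposited scale, while 1 turns positive with hybridization controls set equal and 2 with each covariate.

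The difference varied with signal, as it did over all probe sets tested. When the probe sets tested were put in 4 equal bins by mean signal, 1 of 9 channel probe sets in the lowest bin was higher in High Exploration (25.5% of all in that bin), and in the next 1 of 17 (26.6% of all). In the upper bins 5 of 10 and 6 of 11 were higher, against 38.0% and 62.4% of all. The median difference of the channel probe sets was -0.68 in the lowest bin (-0.57 for all) and 0.48 in the highest (0.35 for all). Taking the probe set with the highest mean of each of the 26 genes, 9 were higher and 17 lower, 44.7% being higher over all genes, with a median of -0.26 (-0.13 over 11500 genes).

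**Figure D2:**
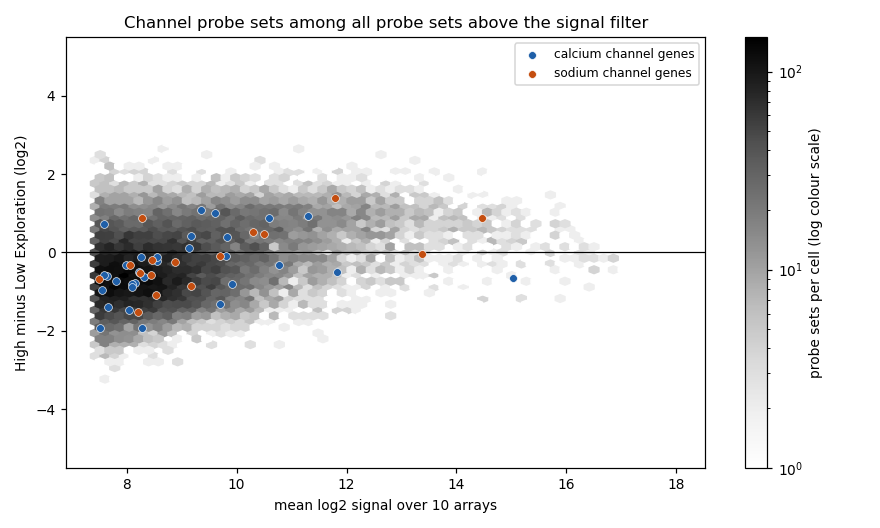
Mean log2 signal over the 10 arrays (x axis) against the difference in mean log2 signal, High minus Low Exploration (y axis), with grey cells for the 22518 probe sets tested and points for the 47 channel probe sets. Channel points lie within the grey cloud, mostly below 0 at low signal and on both sides of 0 at high signal.

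Among the 47, the groups did not overlap on 3 probe sets (6.38%, against 8.83% of all tested): 1 of Scn1a, with High Exploration above (2.14% of all tested), and 1 each of Cacna1b and Cacng4, with High Exploration below (6.69% of all tested).

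Scn1a encodes a sodium channel pore that fast-spiking interneurons depend on, and loss of 1 copy in humans causes Dravet syndrome, an epilepsy. The Scn1a probe set with the highest mean (1450121_at) had log2 signals of 13.04, 13.15, 11.96, 12.11 and 12.17 in the High Exploration mice, against 11.70, 10.64, 10.50, 11.91 and 10.66 in the Low Exploration mice. The lowest High Exploration value lay just above the highest Low Exploration value, and a pair of High Exploration mice stood clear of all others. The difference was 1.40 ± 0.41 (2.65-fold), with an adjusted p of 0.0706 in limma. The next Scn1a probe set (1450120_at) had 8.85, 8.53, 9.06, 9.42 and 7.85 in High Exploration and 9.13, 8.60, 9.86, 9.91 and 10.45 in Low Exploration mice. Here the groups overlapped and the difference was -0.85 ± 0.43 (adjusted p = 0.194). The probe sets of this 1 gene thus differed in opposite directions.

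Scn1a lies in a run of 5 sodium channel pore genes on chromosome 2, Scn3a, Scn2a, Scn1a, Scn9a and Scn7a, which spans 1328 kb on GRCm38.p6 and is represented by 17 probe sets, 8 of them above the filter. Scn2a is the main pore of excitatory axons, and its highest probe set (1435933_at) had 13.64, 12.61, 11.93, 14.38 and 14.20 in High Exploration mice, against 11.36, 13.95, 13.84, 13.65 and 14.13 in Low Exploration mice. The High Exploration values surrounded those of 4 Low Exploration mice, the other Low Exploration mouse being the lowest of all 10, and the difference was -0.034 ± 0.61, which became -0.54 without that mouse and 0.50 after median centring. Scn3a, prominent in the embryonic brain, had 11.14, 10.67, 10.64, 10.19 and 10.15 in High Exploration and 10.75, 9.65, 10.09, 9.96 and 9.68 in Low Exploration mice on its highest probe set (1439204_at), with overlapping groups and a difference of 0.53 ± 0.35 (adjusted p = 0.299).

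Scn7a, which encodes a sodium-sensing relative of the voltage-gated pores, had on 1436043_at 7.90, 6.72, 8.12, 6.84 and 7.68 in High Exploration mice, against 10.02, 8.51, 8.09, 8.93 and 9.28 in Low Exploration mice. Only the lowest Low Exploration mouse fell within the High Exploration range, by a margin in the second decimal, and the difference was -1.51 ± 0.44 (adjusted p = 0.0693). The other Scn7a probe set above the filter (1436044_at) differed by -0.52 ± 0.32 (adjusted p = 0.272), a sign that turned to 0.015 after median centring. Scn8a, the pore of the axon initial segment and nodes of Ranvier, had 3 probe sets above the filter, which differed by -0.20, 0.89 and -0.31, with adjusted p from 0.258 to 0.762, and all 3 overlapped between groups. Its highest probe set (1423515_at, -0.20) turned to 0.33 after median centring and ran from -0.58 to -0.017 when 1 array was left out.

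The sodium channel beta subunits are cell adhesion proteins that set the gating and surface level of the pore. Scn3b on 1435767_at had 14.97, 14.53, 14.34, 15.45 and 15.26 in High Exploration mice, against 13.39, 14.70, 13.43, 14.76 and 13.88 in Low Exploration mice. The upper Low Exploration mice overlapped with the lower High Exploration mice, and the difference was 0.88 ± 0.40 (adjusted p = 0.156). The other Scn3b probe set above the filter (1426328_a_at) differed by -0.57 ± 0.63 (adjusted p = 0.549), in the opposite direction. Scn2b on 1457144_at had 7.78, 8.17, 7.88, 7.46 and 8.70 in High Exploration mice, against 8.45, 9.28, 9.07, 9.72 and 8.87 in Low Exploration mice. A single High Exploration mouse reached into the Low Exploration range, and the difference was -1.08 ± 0.36 (adjusted p = 0.0865). The Scn2b probe set with the highest mean (1436134_at) differed by 0.48 ± 0.46 (adjusted p = 0.483; 0.21 to 0.79 leaving out 1 array), again in the opposite direction.

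**Figure D3:**
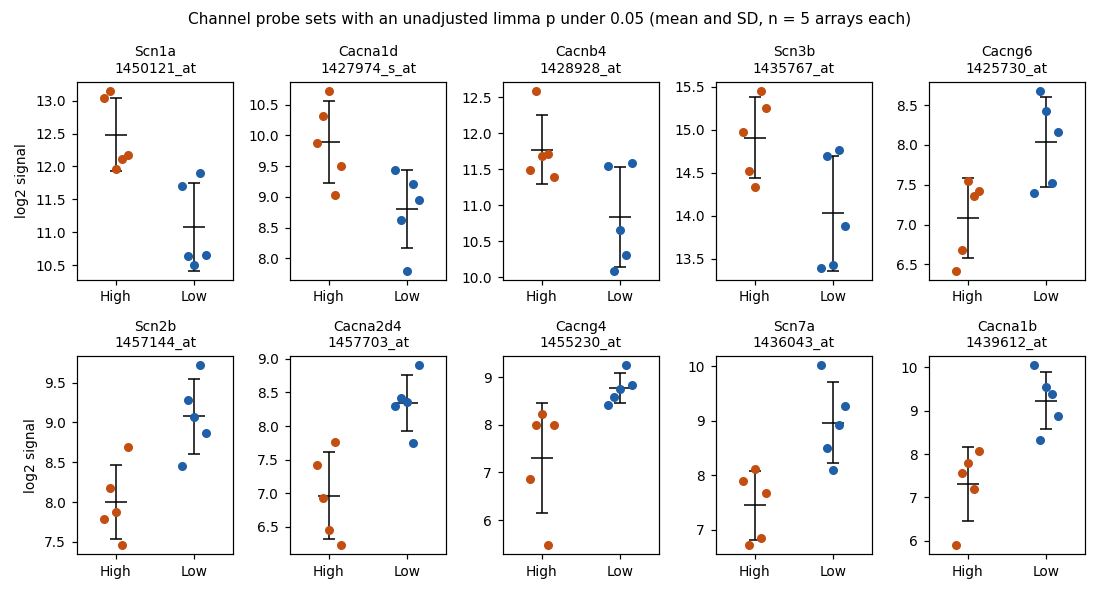
Log2 signal on each array (points; High left, Low right) of the 10 channel probe sets with an unadjusted limma p under 0.05, with mean and SD (n = 5 arrays each); each panel has its own y axis, which does not start at 0. The groups do not overlap for Scn1a, Cacna1b and Cacng4, and at least 1 mouse of either group lies within the range of the other in the remaining 7 panels.

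Among the pore subunits of the calcium channels, Cacna1a and Cacna1b form the P/Q-type and N-type channels that trigger transmitter release at nerve terminals, and Cacna1e the R-type channel. Cacna1b on 1439612_at had 5.90, 7.57, 7.81, 7.19 and 8.07 in High Exploration mice, against 10.05, 8.32, 9.56, 9.39 and 8.87 in Low Exploration mice. Every High Exploration mouse lay below every Low Exploration mouse, and the difference, -1.93 ± 0.46, was the most negative of the 47 and had the smallest adjusted p, 0.0610. The Cacna1b probe set with the highest mean (1460608_at) had 11.11, 9.02, 8.87, 10.86 and 10.73 in High Exploration and 6.70, 10.25, 9.03, 9.85 and 9.71 in Low Exploration mice. The groups overlapped, and the difference of 1.01 ± 0.68 (adjusted p = 0.316) was 0.41 without the Low Exploration mouse at 6.70.

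Cacna1a on its highest probe set (1459996_at) had 10.75, 10.30, 10.05, 10.99 and 10.97 in High Exploration mice, against 10.03, 11.37, 10.79, 11.12 and 11.29 in Low Exploration mice. The groups overlapped, and the difference of -0.31 ± 0.36 (adjusted p = 0.574) turned to 0.23 after median centring and ran from -0.53 to -0.17 leaving out 1 array. Cacna1e (1436260_at) had 9.62, 9.53, 10.77, 9.79 and 10.35 in High Exploration and 9.43, 8.76, 10.49, 9.51 and 9.91 in Low Exploration mice, which overlapped, with a difference of 0.39 ± 0.40 (adjusted p = 0.513) that was 0.17 without Low Exploration replicate 2 and 0.61 without Low Exploration replicate 3. Over the 6 tested probe sets of these 3 genes, 3 were higher and 3 lower as deposited, and 4 and 2 after median centring.

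The L-type pores Cacna1c and Cacna1d couple neuronal activity to transcription and pacemaking. Cacna1d on 1427974_s_at had 9.87, 10.32, 10.73, 9.04 and 9.51 in High Exploration mice, against 9.43, 8.62, 7.80, 9.21 and 8.95 in Low Exploration mice. Only the lowest High Exploration mouse fell within the Low Exploration range, and the difference was 1.09 ± 0.42 (adjusted p = 0.114). It was 0.071 with the Gapdh ratio as a covariate and 0.59 with the hybridization controls as a covariate. The other Cacna1d probe set (1428051_a_at) differed by -0.23 ± 0.38 as deposited, by 0.31 after median centring and by -0.49 to 0.017 leaving out 1 array. Cacna1c on 1421297_a_at had 7.49, 7.91, 8.39, 7.68 and 8.51 in High Exploration and 8.89, 7.50, 8.91, 8.38 and 9.43 in Low Exploration mice, with overlapping groups and a difference of -0.62 ± 0.40 (adjusted p = 0.299). Cacna1s, the pore of skeletal muscle, was above the filter on 1420442_at and differed by -0.59 ± 0.64 (-0.98 to -0.084 leaving out 1 array). Of 5 striated muscle markers, 4 (Acta1, Myh2, Tnnt3 and Actn3) were below the filter.

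The alpha2-delta subunits carry channels to the membrane and promote synapse formation, and Cacna2d1 and Cacna2d2 bind the drug gabapentin. Cacna2d1 had 11.86, 11.56, 10.30, 11.16 and 10.26 on its highest probe set (1433643_at) in High Exploration mice, against 11.19, 10.20, 9.45, 9.83 and 10.06 in Low Exploration mice. A single Low Exploration mouse lay among the High Exploration values, and the difference was 0.88 ± 0.44 (adjusted p = 0.187). The 3 other Cacna2d1 probe sets above the filter differed by -0.31 to -0.81. Cacna2d4 on 1457703_at had 7.42, 6.93, 6.45, 7.77 and 6.22 in High Exploration and 8.29, 8.41, 8.36, 7.75 and 8.91 in Low Exploration mice, with an overlap in the second decimal and a difference of -1.38 ± 0.38 (adjusted p = 0.0663). Cacna2d3 (1419225_at) had 9.66, 9.22, 10.41, 9.58 and 9.94 in High Exploration mice, against 9.94, 9.49, 9.98, 9.89 and 9.89 in Low Exploration mice. The High Exploration values surrounded the Low Exploration values, and the difference of -0.08 ± 0.32 turned to 0.46 after median centring and ran from -0.24 to 0.057 leaving out 1 array. Of the 8 alpha2-delta probe sets tested, 1 was higher and 7 lower as deposited, with a median of -0.64, but 4 and 4 after median centring, with a median of -0.10.

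The cytoplasmic beta subunits bind the pore and protect it from degradation. Cacnb4 had, on 1428928_at, 11.49, 12.59, 11.68, 11.71 and 11.39 in High Exploration mice, against 11.54, 10.09, 10.66, 10.31 and 11.58 in Low Exploration mice. The lower High Exploration mice overlapped with the upper Low Exploration mice, and the difference was 0.93 ± 0.40 (adjusted p = 0.141). The Cacnb4 probe set with the highest mean (1436912_at) differed by -0.50 ± 0.36 as deposited and by 0.039 after median centring. Cacnb1 (1425777_at) and Cacnb2 (1456401_at) differed on their highest probe sets by -0.11 and 0.42, with adjusted p of 0.876 and 0.480, the sign of Cacnb1 turning to 0.43 after median centring. Leaving out 1 array gave -0.36 to 0.25 for Cacnb1 and 0.14 to 0.59 for Cacnb2. Of the 5 beta probe sets tested, 3 were higher as deposited and 5 after median centring.

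The 6 tested probe sets of the TARPs Cacng2, Cacng4, Cacng5, Cacng7 and Cacng8 were all lower in High Exploration as deposited, after median centring and after quantile normalization, and 5 of 6 with hybridization controls set equal. Of all 22518 probe sets tested, 13929 (61.9%) were lower as deposited and 9037 after median centring. After quantile normalization 11337 were lower, and with hybridization controls set equal 8345. With the hybridization controls, the poly-A controls or the Gapdh ratio as a covariate, 12636, 11482 and 12210 of all 22518 were lower. Under these covariates 4 of the 6 TARP probe sets were lower each time and 2 higher, at 0.53 to 1.96 for Cacng2 and Cacng8 with either set of controls and 0.79 and 0.23 for Cacng2 and Cacng7 with the Gapdh ratio. Their median difference was -1.05 as deposited and -0.51 after median centring, and none passed the test (adjusted p from 0.0907 to 0.433). Cacng4 on 1455230_at had 6.85, 7.99, 8.23, 5.47 and 8.01 in High Exploration mice, against 8.42, 8.59, 8.76, 9.26 and 8.84 in Low Exploration mice. Every High Exploration mouse lay below every Low Exploration mouse, 3 of them closely, and the difference was -1.46 ± 0.50 (adjusted p = 0.0907).

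Cacng8, a TARP of hippocampal AMPA receptors, had on 1451864_at 4.38, 4.24, 7.34, 8.86 and 7.96 in High Exploration mice, against 6.58, 7.95, 9.98, 8.39 and 9.49 in Low Exploration mice. A pair of High Exploration mice fell far below the others, the SD of 2.12 among High Exploration mice exceeded that of 1.34 among Low Exploration mice, and the difference was -1.92 ± 0.91 (adjusted p = 0.174). On the linear scale that pair had signals of 20.8 and 18.8, under the 10th percentile of all signals, 23.0. The other Cacng8 probe set (1459579_at), below the filter, differed by 0.63, in the opposite direction. Cacng2, stargazin, differed by -0.79 ± 0.45 on its highest probe set (1440210_at) and by -1.31 ± 0.84 on 1453363_at, where leaving out the Low Exploration mouse at 7.00 moved the difference to -2.14 (adjusted p = 0.0688). Cacng7 (1439745_at) had 14.31, 15.48, 12.95, 15.68 and 15.15 in High Exploration mice, against 14.32, 14.84, 16.46, 15.69 and 15.47 in Low Exploration mice, which overlapped, with a difference of -0.65 ± 0.55 (adjusted p = 0.433) that was -0.21 without High Exploration replicate 3 and -0.90 at the other end of the range leaving out 1 array. Cacng6, a relative of the muscle gamma subunit, differed by -0.95 ± 0.38 on 1425730_at (adjusted p = 0.121), with overlapping groups. Cacng6, Cacng7 and Cacng8 lie side by side on chromosome 7 and Cacng1, Cacng4 and Cacng5 on chromosome 11.

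Of the 15 genes with at least 2 probe sets above the filter, 9 had probe sets that differed in opposite directions as deposited and 6 had all of them lower. Such probe sets share a gene and are not replicates of each other. The log2 ratio of the probe set with the highest mean to the next was therefore taken on each array, which removes the constant that MAS 5.0 multiplies an array by. For Scn1a the ratio was 4.18, 4.62, 2.90, 2.69 and 4.31 in High Exploration mice, against 2.57, 2.03, 0.64, 1.99 and 0.20 in Low Exploration mice. The groups did not overlap, and the means were 3.74 ± 0.88 in High Exploration and 1.49 ± 1.01 in Low Exploration mice (SD, n = 5 each), a difference of 2.25 (exact permutation test, two-sided p = 0.00794, reached by 6.43% of the 4309 genes for which the ratio could be taken). Adjusted over those 4309 genes the p was 0.123.

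The ratio also differed at an unadjusted exact p under 0.05 for Cacna1d (1.32, p = 0.0238), Cacna1b (0.90, p = 0.0397) and Cacnb4 (-1.43, p = 0.0476), so that 4 of 15 genes did (26.7%, against 948 of the 4309, 22.0%). None of the 15 passed after adjustment, and 0.0% of the 4309 did. The median of the ratio's difference was 0.51 over the 15 genes and 0.22 over all, with 11 of 15 above 0, against 58.8% of all. The Cacna1b ratio was 0.56 without Low Exploration replicate 1. Such a ratio shows how probe sets differ relative to each other, not which of them differs.

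The same was done for 9 pairs of related subunits, and 0 passed adjustment over the 9 pairs. Cacna1d over Cacna1c was 2.38, 2.40, 2.34, 1.36 and 1.00 on the log2 scale in High Exploration mice, against 0.55, 1.11, -1.11, 0.84 and -0.47 in Low Exploration mice. The groups overlapped by 1 mouse each, and the difference was 1.71 (exact permutation test, p = 0.0159, adjusted p = 0.143). Cacna1b over Cacna1a differed by 1.32 (exact p = 0.0397, adjusted p = 0.179), and by 0.94 without Low Exploration replicate 1. The 7 other pairs had exact p from 0.119 to 0.905.

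**Figure D4:**
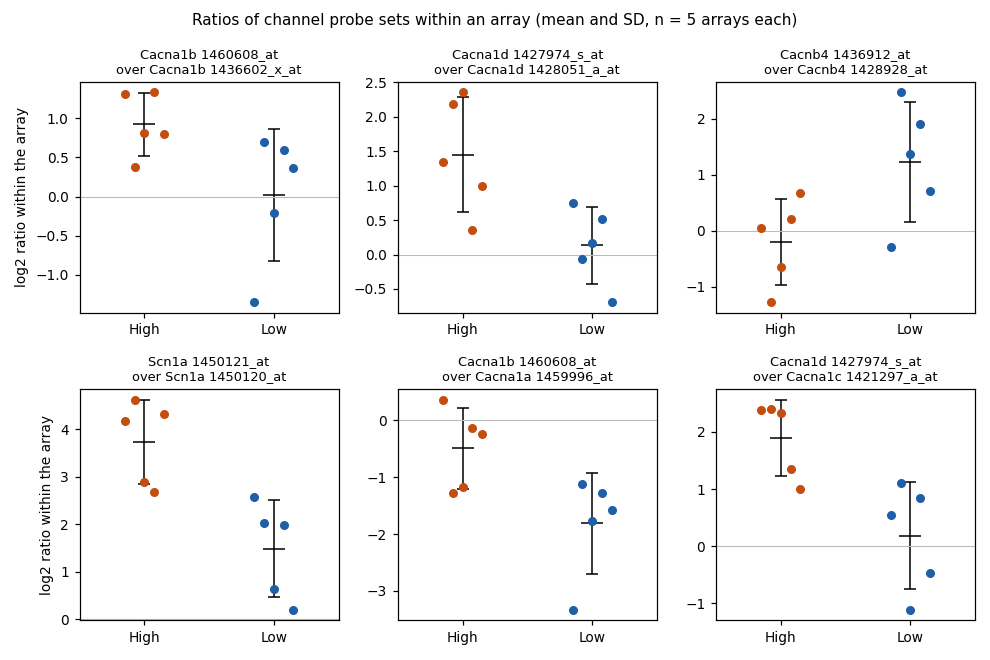
Log2 ratio of 2 channel probe sets within each array (points; High left, Low right), with mean and SD (n = 5 arrays each), for the 4 within-gene and 2 between-gene ratios with an unadjusted exact p under 0.05; the y axes differ and the grey line marks equal signal. Only the Scn1a ratio separates the groups completely, from 2.69 to 4.62 in High and from 0.20 to 2.57 in Low Exploration mice.

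The scaling of the arrays shifted the channel probe sets together with all others. After median centring 27 of 47 were higher (59.9% of all tested), 10 were higher (23.0% of all) and 2 lower (5.74% of all) at an unadjusted p under 0.05, and 1 passed the adjusted threshold, Scn1a on 1450121_at (1.94, adjusted p = 0.0498), where 4.02% of all probe sets tested passed. The groups then did not overlap on 6 channel probe sets (8.52% of all tested): Cacna1b on 1439612_at below, and Scn1a, Cacna1d, Cacna2d3, Cacnb4 and Scn3b above. After quantile normalization only Cacna1b on 1439612_at still separated the groups, at -1.50 (5.85% of all tested), and with hybridization controls set equal only Scn1a and Scn3b did (6.96% of all tested). With array weights 4 channel probe sets passed (Cacna1b 1439612_at, Scn1a 1450121_at, Cacna2d4 1457703_at and Scn2b 1457144_at; 9.71% of all tested), with a filter at the 75th percentile of mean signal 1 of 21, Scn1a (6.33% of all tested), and without High Exploration replicate 5 1 of 47, Cacna1b 1439612_at (4.63% of all tested). With the poly-A controls as a covariate the Scn1a difference was 0.064 and that of Cacna1b -1.003, both with an adjusted p of 1.00, as had every probe set tested in that fit. The poly-A level separated the groups completely, from 11.8 to 13.1 in High Exploration and from 13.6 to 14.7 in Low Exploration mice. Such a fit cannot tell the controls from the group.

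**Figure D5:**
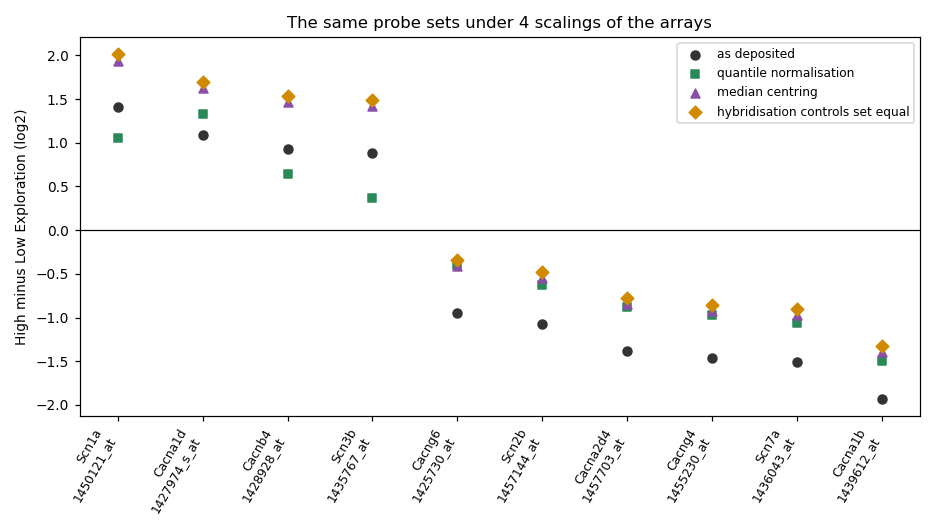
Difference in mean log2 signal, High minus Low Exploration, of the 10 channel probe sets with an unadjusted p under 0.05, under 4 scalings (as deposited, quantile normalization, median centring and hybridization controls set equal). Each of the 10 keeps its sign under these 4, from 1.06 with quantile normalization to 2.01 with hybridization controls set equal for Scn1a and from -1.93 as deposited to -1.32 with hybridization controls set equal for Cacna1b. The 10 were chosen on the deposited scale. Median centring raises every difference by 0.54 and equal hybridization controls by 0.61. The negative difference nearest 0 is -0.95, for Cacng6, so no sign could turn under those constant shifts. Quantile normalization moves each probe set by its own amount, Scn3b for example from 0.88 to 0.37.

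Within the groups, 1 mouse stood apart on several of these genes. Low Exploration replicate 1 was the lowest of its group on 18 of the 47 probe sets, and High Exploration replicate 3 on 15 of 47, while the least frequent, High Exploration replicate 4 and Low Exploration replicate 5, were lowest on 5 each. High Exploration replicate 3 was also the highest of its group on 12 of the 47, and Low Exploration replicate 1 on 7. Such counts were not taken over all probe sets, so they may not be particular to the channels. For Low Exploration replicate 1 the probe sets on which it was lowest included Scn2a, Cacna1a and Cacnb4 on their highest probe sets and Cacna1b on 1460608_at and 1436602_x_at. The median SD within a group over the 47 came to 0.65 for High Exploration and 0.67 for Low Exploration mice.

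Below the filter, 6 of the 38 probe sets were higher in High Exploration (15.8%, against 31.0% of all 45037) and 32 lower as deposited, and in the fit without a filter 5 had an unadjusted p under 0.05 (13.2%, against 21.3% of all 45037). Scn9a, the pore of pain-sensing neurons, had on 1442810_x_at 6.51, 7.00, 6.89, 7.41 and 6.55 in High Exploration mice, against 4.49, 6.32, 3.93, 3.32 and 4.59 in Low Exploration mice. Every High Exploration mouse lay above every Low Exploration mouse (1.17% of all 45037 probe sets), and the difference was 2.34 (adjusted p = 0.109). The suffix marks a probe set some of whose probes can match other transcripts, and the 4 other Scn9a probe sets differed by -0.65 to 0.16. The other probe sets below the filter with an unadjusted p under 0.05 were Cacna1h on 1422710_a_at (1.69), Scn11a on 1420784_at (-1.90), Scn2a on 1445259_at (-1.12) and Scn3a on 1421705_at (-1.34), with adjusted p from 0.152 to 0.232.

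Proteins that anchor or bind these channels were read on the highest probe set of each gene. None of the 6 genes of the axon initial segment passed the test. Cntn1, an adhesion protein that binds sodium channel beta subunits, averaged 13.7 ± 0.60 in High Exploration and 12.3 ± 0.68 in Low Exploration mice (SD, n = 5 each; difference 1.39, limma adjusted p = 0.0742), and Nfasc averaged 8.71 ± 0.79 and 9.76 ± 0.28 (difference -1.05, adjusted p = 0.110). The groups overlapped for neither, while Ank3, ankyrin G, differed by 0.023. Of the 4 FGF homologous factors, which bind the tail of the sodium channel pore, Fgf12 and Fgf13 differed by 1.06 and 1.68 (adjusted p = 0.109 and 0.112), with overlapping groups. Fgf14 differed by -0.82 (adjusted p = 0.218) and Fgf11 by -0.058 (adjusted p = 0.912), and none of the 4 passed.

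Among the calcium channel binding proteins, 5 of 9 were above the filter and 0 passed, the smallest p belonging to Rims1 (0.47, adjusted p = 0.312) and Rimbp2 (0.66, adjusted p = 0.336), which tether channels at the active zone. Of 4 tested genes of the sodium leak channel and of channel turnover, 0 passed, and Nalcn, the leak pore, differed by 1.21 (adjusted p = 0.0943) and its partner Unc80 by 0.75 (adjusted p = 0.268). In all, 4 of these 19 partner genes were higher and 1 lower at an unadjusted p under 0.05, against 12.1% and 14.5% of all 11500 genes on their highest probe set.

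The mean of 7 neuronal markers, all above the filter, ran from 11.7 to 12.1 in High Exploration and from 10.98 to 11.8 in Low Exploration mice, and that of 3 dentate granule cell markers above the filter and 1 below from 8.72 to 10.5 and from 10.1 to 10.7. None of the 32 marker genes above the filter passed the test. At an unadjusted p under 0.05, 7 were higher and 2 lower, against 12.1% and 14.5% of all 11500 genes on their highest probe set. The groups did not overlap for 3 of them, the interneuron marker Vip (1.29, adjusted p = 0.0663) and the astrocyte marker Gja1 (1.25, adjusted p = 0.0690), with High Exploration above, and the granule cell marker Tdo2 (-1.51, adjusted p = 0.0663), with High Exploration below. Among all 11500 genes on their highest probe set, 333 had High Exploration above without overlap and 496 below. The neuronal marker Neurod6 differed by 1.18 (adjusted p = 0.0726) and the interneuron marker Gad1 by 0.99 (adjusted p = 0.157), with overlapping groups. Others of the same lists were lower as deposited: Gad2 (-0.16) and Slc32a1 (-0.41) of interneurons, Slc1a3 (-0.16) of astrocytes and Camk2a (-0.011) of neurons. Of those tested, 6 of 7 neuronal, 3 of 5 interneuron, 3 of 4 astrocyte and 0 of 3 granule cell markers were higher. The 6 interneuron markers, of which Sst lay below the filter, averaged 9.24 to 10.6 in High Exploration and 9.31 to 10.1 in Low Exploration mice. The part of cell composition in the channel differences was not tested.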

How the data were processed

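Expression was measured on 10 single-color Affymetrix mouse genome arrays, 1 per mouse, with groups taken from the sample titles and replicates numbered in accession order. Total RNA is taken to come from Qiagen RNA/DNA columns, while the paper's methods name those columns or Trizol. The methods do not say which was used for these mice. The labels name the standard Affymetrix protocol, while the methods describe amplification in a double round, and which applies is not settled here. The design text filed with the series describes a handling experiment on the CA1 region and was not used. The values deposited by the authors are signal intensities summarized with MAS 5.0 in Expression Console 1.1, on a linear scale with a 2% trimmed mean of 500 per array and no normalization of the distribution. The depth of an array has no counterpart in reads.

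Intensities were taken as log2, 64 control probe sets were set aside, and those whose mean lay over the median of the means were fitted with limma 3.58.1 in R 4.3.3 (lmFit and eBayes, two-sided, Benjamini-Hochberg over all tested, threshold 0.05). The methods' preference for data without distribution normalization set the deposited scale as the main one. Ratios within an array were compared by exact permutation over 252 assignments in Python 3.11.15. Scripts were tested on simulated data. Alternatives were other scalings, filters, covariates, array weights and leaving out each array. The members and lists were chosen with earlier results of these data known. Array values are given for probe sets at an unadjusted p under 0.05 with groups that do not overlap and for the highest probe set of subunits known in hippocampal neurons where the results turn on them; others with an unadjusted p under 0.05 were added after their values were seen, as were Cacna1b on 1460608_at and Scn9a. Partner genes are the 2 with the smallest p in each list. Ank3, Fgf11, Fgf14, Tdo2, Vip, Gja1, Neurod6, Gad1, Gad2, Slc32a1, Slc1a3 and Camk2a were also named after their values were seen. Promoter windows came from RefSeq (GRCm38.p6), and gene symbols from the platform annotation, in which 34945 probe sets have 1 symbol. Genome coordinates of probe sets were not used here. Each array is a different mouse, and p-values measure the spread between mice together with that of the arrays.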

Additional observations from a re-analysis of the deposited data

Results flagged for a closer look

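Within each group of 5, the highest or lowest mouse was compared with its nearest neighbor, over 92 groups of values (46 results, each in High and Low Exploration mice). In 5 groups 1 mouse stood far from the others, and chance alone gives about 1 in 20.

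In High Exploration mice this was Cacnb4 on 1428928_at, where replicate 2 had a log2 signal of 12.59 and the next 11.71. Without it the difference was 0.73 (adjusted p = 0.289). The other 4 were in Low Exploration mice. Replicate 1 was lowest on Scn2a 1435933_at (11.36, next 13.66), on Cacna1b 1436602_x_at (8.05, next 9.23) and on Cacna1s 1420442_at (6.39, next 7.95). Without it the differences were -0.54 for Scn2a, -0.15 for Cacna1b on this probe set, whose sign turned, and -0.98 for Cacna1s. Replicate 2 was lowest on Cacna2d3 1419225_at (9.49, next 9.89), and the difference without it was -0.17.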

How the results depend on the processing

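No channel probe set passed the adjusted threshold as deposited. With array weights 4 did (9.71% of all tested): Cacna1b 1439612_at (adjusted p = 0.0401), Scn1a 1450121_at (0.0422), Cacna2d4 1457703_at (0.0463) and Scn2b 1457144_at (0.0475). With median centring 1 did and with a filter at the 75th percentile 1 of 21 did (6.33% of all tested), both times Scn1a 1450121_at. Leaving out 1 array gave 0 to 1, the 1 being Cacna1b 1439612_at without High Exploration replicate 5 (adjusted p = 0.0446; 4.63% of all tested). With the poly-A covariate, whose level separated the groups completely, the smallest adjusted p was 1.00 for the channel probe sets and for all tested.

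Higher at an unadjusted p under 0.05, with the share of all probe sets in parentheses, were 10 with median centring (23.0%), 10 with hybridization controls set equal (23.2%), 2 with them as a covariate (2.14%), 1 with the Gapdh ratio as a covariate (2.65%), 0 with the poly-A covariate (1.34%), and 1 to 5 leaving out 1 array (6.44% to 10.9%). Lower were 2 (5.74%), 1 (3.94%), 3 (5.49%), 3 (5.30%) and 2 (1.69%) in the same settings, 0 with the stricter filter (17.4%), 2 on the highest probe set of each gene (14.5%), and 5 to 9 leaving out 1 array (16.04% to 22.9%). The median difference was 0.22 with median centring, 0.29 with hybridization controls set equal, 0.075 with them as a covariate, 0.035 with the Gapdh covariate, -0.011 with cyclic loess, -0.035 with quantile normalization, 0.11 with the stricter filter, and -0.48 to -0.21 leaving out 1 array. Non-overlapping channel probe sets numbered 6 with median centring and 1 with quantile normalization. With limma in place of the exact test 1 within-gene ratio passed, Scn1a (adjusted over the 15 ratios alone, p = 0.0362). That fit was made on the 15 channel ratios only, so it has no share over all genes beside it. In the exact test adjusted over all 4309 genes Scn1a had a p of 0.123, and 0.0% of the genes passed. The counts of non-overlapping probe sets under other scalings and the adjustment of ratios over all genes were chosen after seeing the data. The cause of these shifts was not tested.

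Of 46 named results, 22 changed sign under at least 1 of the alternatives and 24 under none. The covariates themselves differed between the groups, the poly-A level without overlap, so signs under them cannot separate covariate from group. With the Gapdh covariate the reversed differences were Cacna1a 1459996_at 0.44, Cacna1d 1428051_a_at 0.043, Cacna1s 1.40, Cacna2d4 1441084_at 0.51, Cacnb1 0.21, Cacnb4 1436912_at 0.33, Cacng2 1453363_at 0.79, Cacng7 0.23, Scn2a 1435933_at 1.75, Scn2b 1436134_at -0.91, Scn3a 1439204_at -0.023 and Scn11a 0.099. With the hybridization covariate they were Cacna1a 0.31, Cacna1d 0.35, Cacna1s 0.53, Cacna2d3 0.14, Cacnb4 0.073, Cacng2 0.53, Cacng8 0.81, Scn2a 1.43, Scn2b -0.43, Scn3a -0.049 and Scn8a 0.15. With the poly-A covariate they were Cacna1c 0.90, Cacna1d 0.42, Cacna2d3 0.64, Cacnb1 1.03, Cacnb2 -0.54, Cacng2 1440210_at 0.62, Cacng8 1.96, Scn2a 0.46, Scn8a 0.21 and Scn11a 0.32. With hybridization controls set equal they were Cacna1a 0.30, Cacna1d 0.38, Cacna1s 0.014, Cacna2d2 0.12, Cacna2d3 0.53, Cacnb1 0.50, Cacnb4 0.11, Cacng5 0.032, Scn2a 0.57, Scn7a 1436044_at 0.085 and Scn8a 0.40. With median centring they were Cacna1a 0.23, Cacna1d 0.31, Cacna2d2 0.050, Cacna2d3 0.46, Cacnb1 0.43, Cacnb4 0.039, Scn2a 0.50, Scn7a 0.015 and Scn8a 0.33. Cyclic loess reversed Cacna1d (0.21), Cacna2d2 (0.010), Cacnb1 (0.32) and Scn8a (0.25), and quantile normalization Cacna1d (0.19), Cacna2d3 (0.080), Cacnb1 (0.31) and Scn8a (0.23). Leaving out 1 array reversed Scn2a 1435933_at in 6 cases (-0.54 to 0.32 over all 10), Cacna1b 1436602_x_at in 3 (-0.15 to 0.39), and Cacna2d3 (-0.24 to 0.057), Cacnb1 (-0.36 to 0.25) and Cacna1d 1428051_a_at (-0.49 to 0.017) in 1 each.

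No paired analysis was possible because the sample titles give no number that links a High Exploration mouse to a Low Exploration mouse. Signals near background, under the filter, carry the least certain differences.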
